A study of Gallus gallus with 3 samples.

Results

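The genes described here are 5 regulators of innate signalling and of the interferon response: the adaptor MYD88, the NF-kB inhibitor NFKBIE, the IKK-epsilon suppressor SIKE1 and the transcription factors IRF1 and IRF7. They were chosen by gene name, with earlier results of these arrays known. Their probes were found through the RefSeq accession that the array design gives each probe. All 5 had a probe, 1 each, among the 3870 chicken genes that could be named on the array. DT40, a chicken B cell lymphoma line grown from a bursal tumour, was cultured for 4 h in medium with fetal bovine and avian serum in 3 ways. The control group received no peptide (0 µg/ml), the second group 0.02 µg/ml of BP5, and the third 2 µg/ml of BSP-II. Both peptides derive from the bursa of Fabricius, where B cells mature in birds. All groups are the same cell line, with no other genotype. Each was represented by 1 one-colour array labelled replicate 1, so no difference has a replicate check, no test between groups was possible, and the number of arrays limits the precision.

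Toll-like receptors sense microbial molecules and pass the signal through adaptors such as MYD88 to the IKK kinases, which trigger the destruction of NF-kB inhibitors and so free NF-kB to enter the nucleus. A parallel branch through the kinases TBK1 and IKK-epsilon activates interferon regulatory factors, which switch on type I interferon genes. Chickens lack an IRF3 gene, and IRF7 serves this branch in its place. B cells use the same NF-kB system downstream of their antigen receptor.

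The measure throughout is the processed signal of a spot, the fluorescence after background subtraction, in intensity units. For ratios its log2 was taken relative to the 75th percentile of its array, which was 254.8 for the control, 178.7 for BP5 and 154.1 for BSP-II. A log2 ratio is the difference of such values between 2 arrays, and a gene is called higher or lower at 2-fold or more. The ± given with a ratio combines the errors that the scanner software assigns to both spots (median 0.20 over all genes) and covers neither culture nor labelling. A probe counts as detected where the software flags it well above background. The dimmest detected probe read 30.2 for the control, 49.1 for BP5 and 36.7 for BSP-II. The control came from scan 1 of the slide and the peptide arrays from scan 2, so any ratio of peptide to control may hold a scan effect, and these cannot be told apart. In RNA from a whole culture, fewer cells of a type and less RNA per cell cannot be told apart.

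Of 9 B cell markers with a probe, 6 were detected on all 3 arrays, among them BTK, SYK and POU2AF1. PAX5, CD79B and EBF1, which define the lineage, were undetected throughout. Whether an undetected probe, here or below, means an unexpressed gene was not tested. The processed signals of all 9 summed to 3219 in the control, 2364 with BP5 and 2022 with BSP-II, which is 12.6, 13.2 and 13.1 times the array's 75th percentile, the scale of all ratios below. Of 7 T cell markers, CD3D and CD247 were detected on every array and the other 5 on none. That list summed to 3996, 2384 and 2706, or 15.7, 13.3 and 17.6 times the percentile, so that BSP-II ranks above the control once scaled. Of 4 macrophage and granulocyte markers LYZ alone was detected, and the list summed to 132 to 159.8, or 0.627, 0.74 and 0.856 times the percentile. Erythroid and thrombocyte markers (1 of 2 detected, TUBB1) summed to 2545, 897 and 967, or 9.99, 5.02 and 6.28 times, which is lower with both peptides on either scale. Fibroblast, epithelial and endothelial markers (3 of 7 detected) summed to 1225, 1038 and 917, or 4.81, 5.81 and 5.95 times. The T cell sums rest mostly on CD3D, which read 3703, 2191.5 and 2540. Those of the erythroid and thrombocyte list rest on TUBB1, at 2534, 887 and 960. All arrays are of 1 cell line, so a sum is not a share of a cell type. The part of other cell types in the ratios below was not tested.

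MYD88 is the adaptor that links most Toll-like receptors and the interleukin-1 receptors to NF-kB. Its probe read 415.5 without peptide, 127 with BP5 and 307.5 with BSP-II. It was detected on all 3, and the BP5 array held the lowest reading, 2.59 times that of its dimmest detected probe. Relative to the 75th percentile these readings were 0.71, -0.49 and 1.00 in log2, so that the BSP-II array ranked first after scaling and the control array second. With BP5, MYD88 was lower by 2.30-fold (log2 ratio of -1.20 ± 0.23). Its log2 ratio with BSP-II was 0.29 ± 0.21, not past 2-fold, and it turned to -0.07 once the median ratio of the probes around it was subtracted. The decrease with BP5 was -0.73 under normexp background correction, which ends the call. This correction, here and below, adds 50 to every spot, which by itself draws the ratios of dim spots towards 0. How much of a change under it is due to that was not tested.

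NFKBIE encodes IkB-epsilon, an inhibitor that holds NF-kB dimers in the cytoplasm and, in mammals, is itself an NF-kB target. It read 849.1 without peptide, 1642 with BP5 and 1267 with BSP-II. Both peptide arrays lay above the control, although the 75th percentile of each peptide array was lower than that of the control. The log2 ratio was 1.46 ± 0.20 with BP5, a 2.76-fold increase, and 1.30 ± 0.20 with BSP-II, a 2.47-fold increase. NFKBIE was the only one of the 5 genes that was higher with a peptide by 2-fold. The call with BSP-II ended when the neighbouring probes were subtracted (0.96), while that with BP5 stayed past 2-fold under all 8 alternatives, from 1.23 to 1.60.

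SIKE1 encodes a protein that, in human cells, binds IKK-epsilon and TBK1 and restrains the interferon branch. Its probe read 936.8 without peptide, 80.2 with BP5 and 72.1 with BSP-II. The control reading was 31.0 times that of the dimmest detected probe of its array, and the peptide readings were 1.63 and 1.97 times. SIKE1 was 8.19-fold lower with BP5 (log2 ratio -3.03 ± 0.27) and 7.86-fold lower with BSP-II (-2.97 ± 0.25). In each comparison 1 gene alone had a lower ratio, among 2578 genes measured on both arrays for BP5 and 2615 for BSP-II. Both decreases stayed past 2-fold under all 8 alternatives, from -3.50 to -2.07 with BP5 and from -3.67 to -2.04 with BSP-II, the smallest of each under normexp.

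IRF1 is a transcription factor that is induced by interferon-gamma and NF-kB and activates antiviral and antigen presentation genes. It read 159 without peptide, 53.4 with BP5 and 77.5 with BSP-II. The BP5 reading was 1.09 times that of the dimmest detected probe of its array, so it stood just above the detection limit. IRF1 was 2.09-fold lower with BP5 (log2 ratio -1.07 ± 0.34). With BSP-II the log2 ratio was -0.32 ± 0.25, not past 2-fold. The call with BP5 held under only 3 of 8 alternatives and ended under the other 5. These were normexp (-0.61), scaling on probes detected on all arrays (-0.94) and the subtraction of neighbouring probes. That subtraction gave -0.90 within 5 rows and columns, -0.83 within 3 and -0.82 within 10, and is 1 correction at different reach.

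IRF7 is the factor that drives type I interferon genes and is itself induced by interferon. It was detected on the control array only, at 253.7, and read 9.85 with BP5 and 10.7 with BSP-II. The BP5 reading is the floor that the software sets for dim spots. The BSP-II spot was positive and significant by the software's weaker criterion, but not well above background. Before any correction the spot was 6.95 times as bright as its local background on the control array, and 1.86 and 2.03 times on the BP5 and BSP-II arrays. The ratio is therefore a bound, the control value minus that of the dimmest detected probe of the peptide array. IRF7 was at least 3.63-fold lower with BP5 and at least 4.19-fold lower with BSP-II. Over the 8 alternatives the smallest bound was 2.71-fold with BP5, from neighbours within 3 rows and columns, and 2.68-fold with BSP-II, under normexp. Between the peptides no ratio can be given, since both arrays lay below detection.

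**Figure D1:**
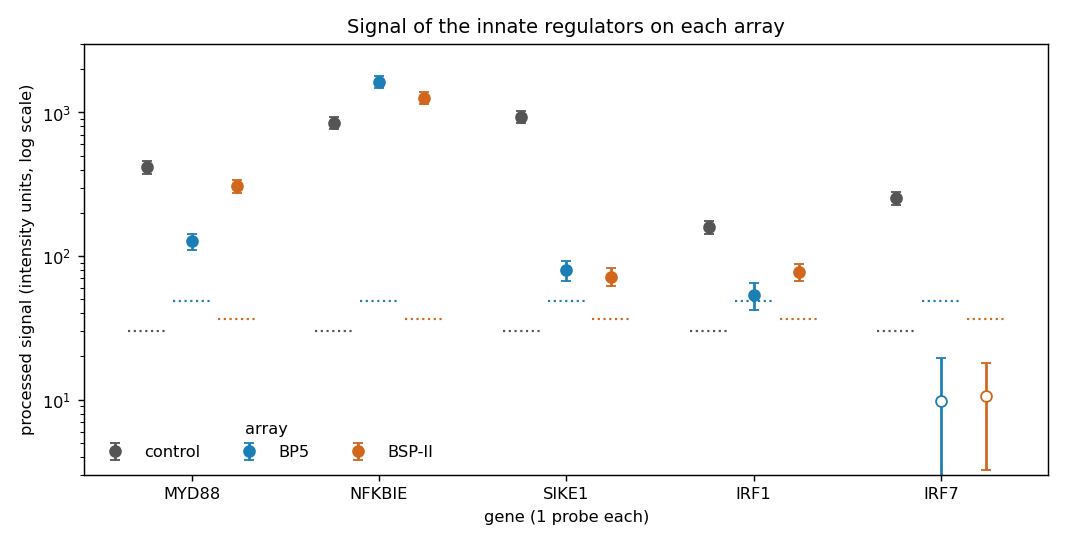
Processed signal (intensity units, log scale) of the 1 probe of each gene on the control, BP5 and BSP-II arrays, with bars for the scanner software's spot error (for IRF7 with BP5 the bar runs below the axis). Open circles are not well above background, and dotted lines mark the dimmest detected probe of each array; SIKE1 falls from 936.8 to 80.2 and 72.1, and IRF7 is open on both peptide arrays.

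Against the control, 1 of the 4 genes with a ratio was higher and 3 were lower with BP5. Of all 2578 measured genes, 2.91% were higher and 3.76% lower. With BSP-II 1 was higher and 1 lower, against 2.79% and 2.14% of 2615 genes. Of the 216 genes detected in the control and no longer with BP5, 6.94% had a bound of at least 2-fold lower, as IRF7 had. For BSP-II this share was 7.26% of 179 genes. The genes were chosen with earlier results of these arrays known, so nothing about the group is read from these counts. Both comparisons also share the control array, and 1 odd control reading would move both of a gene's ratios together. The median log2 ratio over all genes was -0.09 with BP5 and 0.01 with BSP-II, and scaling on the median of all probes moved it to -0.29 and -0.18. The split over all genes depended on the scaling. With BP5 it was 75 higher and 97 lower as reported, 97 and 73 with the percentile taken over probes detected on all arrays, and 44 and 142 with the median. With BSP-II it was 73 and 56 as reported and 48 and 88 with the median.

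**Figure D2:**
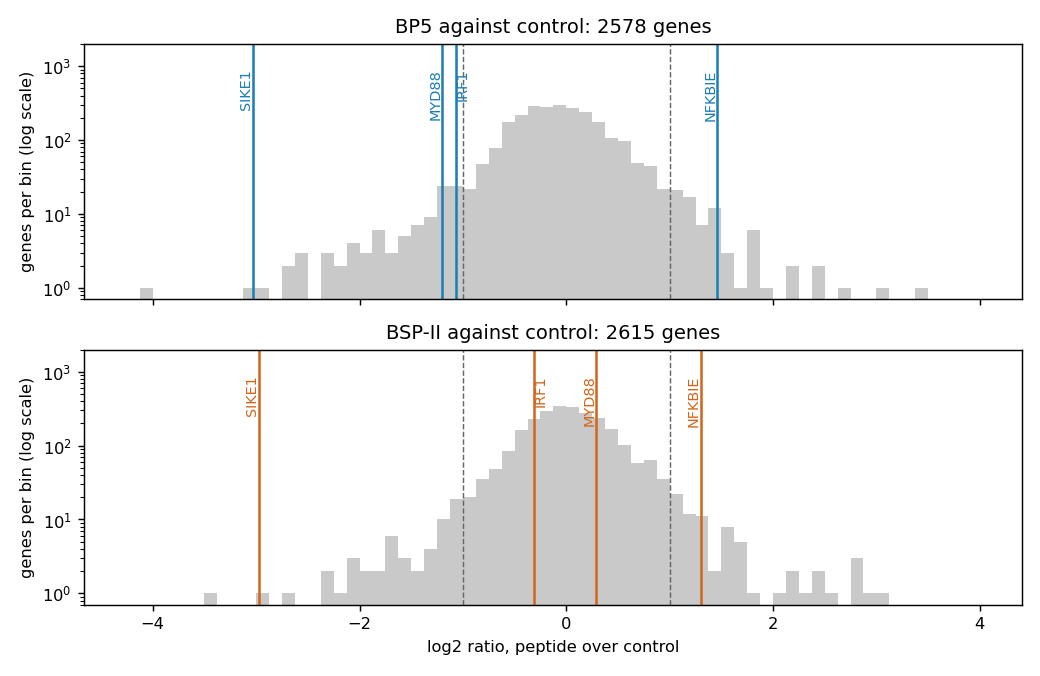
Number of genes per bin (log scale) against the log2 ratio of peptide over control, with vertical lines at the genes that have a ratio and dashed lines at 2-fold. SIKE1 stands at -3.03 and -2.97 in the far left tail of both panels, MYD88 and IRF1 lie just past the lower dashed line with BP5 (-1.20 and -1.07) and inside both dashed lines with BSP-II.

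**Figure D3:**
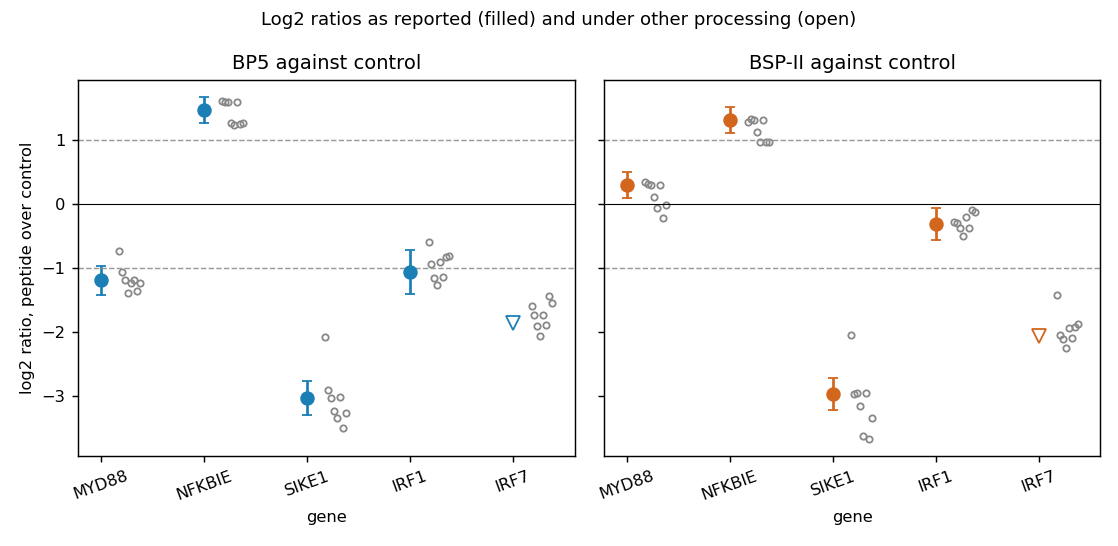
Log2 ratio of each peptide over the control for each gene: filled points are the values as reported with the scanner software's spot error, open triangles are bounds (IRF7, at -1.86 and -2.07), and small open circles are the 8 alternatives. NFKBIE, SIKE1 and IRF1 keep their sign in every alternative, and MYD88 with BSP-II lies on both sides of 0. The bounds of IRF7 are negative by the way they are set.

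Some regions of these arrays carry ratios of their own, so each probe was set against its detected neighbours within 5 rows and columns. SIKE1 lay below all 38 neighbours measured with BP5, the lowest of which had a log2 ratio of -0.76, and below all 42 with BSP-II, the lowest at -0.56. The median of those neighbours was above 0, at 0.30 and 0.65, so that subtracting it enlarged the decrease to -3.34 and -3.62. NFKBIE lay above all 37 neighbours with BP5 and all 39 with BSP-II, the highest of which had ratios of 1.28 and 0.91. IRF1 with BP5 (-1.07) was just under the lowest of its 51 neighbours (-1.02). The neighbours of MYD88 were the most scattered, from -1.87 to 2.95 with BP5, and 3 of 27 had a ratio as low as that of MYD88 or lower. With BSP-II the 28 neighbours of MYD88 had a median of 0.36, and MYD88 itself lay in their midst. Around IRF7 the lowest neighbours had ratios of -0.96 with BP5 and -1.32 with BSP-II, above the bounds of IRF7 at -1.86 and -2.07. Only neighbours detected on both arrays were counted, so a probe lost on a peptide array as IRF7 was could not appear among them. The place of IRF7 below its neighbours is therefore no check on its bounds. On the BP5 array SIKE1 and IRF1 read 1.63 and 1.09 times the dimmest detected probe, and SIKE1 1.97 times with BSP-II. A dimmer neighbour with a like fall would be lost as well, so their place below their neighbours is a limited check.

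**Figure D4:**
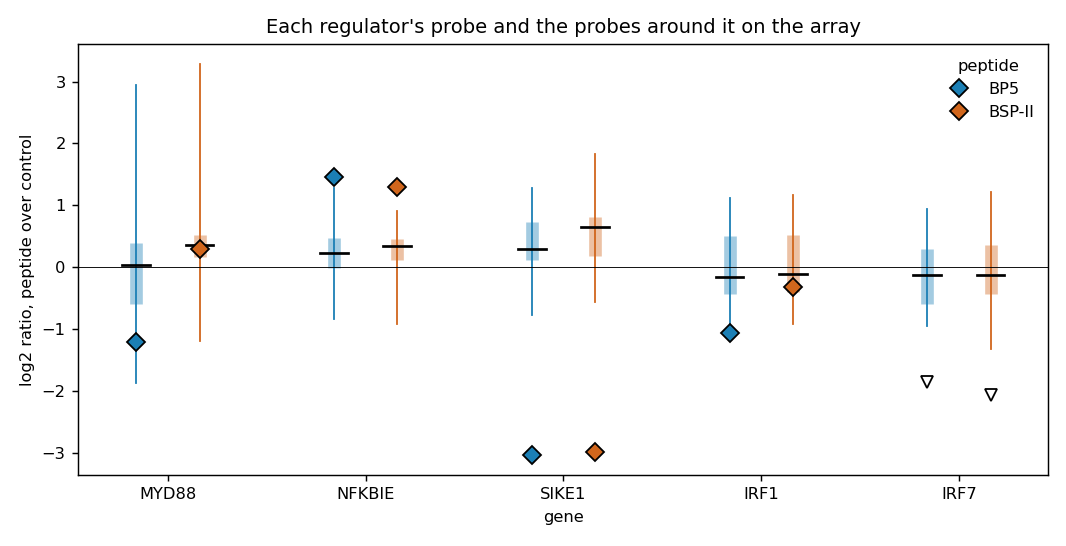
Log2 ratio of peptide over control for each gene's probe (diamonds, or open triangles for the bounds of IRF7) and for the detected probes within 5 rows and columns of it on the array (black line, median; thick bar, quartiles; thin line, lowest to highest). SIKE1 lies below and NFKBIE above the whole range of their neighbours with both peptides, while MYD88 lies within it. Neighbours lost on a peptide array are not shown.

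Between the peptides the scan was shared but the dose was not (0.02 µg/ml of BP5, 2 µg/ml of BSP-II), so the ratios below set side by side peptide and dose together. MYD88 was 2.81-fold lower with BP5 than with BSP-II (log2 ratio -1.49 ± 0.24), and stayed past 2-fold under all 8 alternatives, from -1.50 to -1.07. Of 2569 genes measured on both arrays 1.48% were at least 2-fold lower with BP5 and 0.117% higher, and MYD88 ranked at 17 from the lowest. IRF1 had a log2 ratio of -0.75 ± 0.36, not past 2-fold. SIKE1 (-0.06 ± 0.31) differed between the peptides by less than the error of its spots, which does not show that the peptides act alike on it. NFKBIE (0.16 ± 0.20) did so as reported and under scaling on the median, and was higher with BP5 by 0.25 to 0.32, beyond that error, under the other 7 alternatives. The split over all genes was 3 higher and 38 lower as reported, and 8 and 32 with the percentile over probes detected on all arrays.

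The rest of the pathway was followed in lists grouped by role. Of 32 genes listed as Toll-like receptors, their adaptors and kinases, 12 had a probe, and 8 were measured in both comparisons with the control. With BP5 LY86 was higher, and MYD88 and TAB1 were lower. With BSP-II LY86 was higher and 0 were lower. LY86, the partner of the B cell surface receptor CD180, read 223 on the control, 327 on the BP5 and 285 on the BSP-II array, with log2 ratios of 1.06 ± 0.21 and 1.08 ± 0.21. Both calls of LY86 ended under normexp (0.75 and 0.72) and under scaling on the median (0.86 and 0.89), and held under the other 6 alternatives. TAB1, an activator of the kinase TAK1 downstream of MYD88, read 6568, 2096 and 3435. Its log2 ratio was -1.14 ± 0.20 with BP5 and -0.21 ± 0.20 with BSP-II, and after subtraction of the neighbouring probes -0.76 and 0.16, which ends the call with BP5 and turns the sign with BSP-II. The call of TAB1 held under 2 of 8 alternatives. The receptors TLR1A, TLR3, TLR4 and TLR21 were undetected on every array, whereas TLR7, a sensor of single-stranded RNA, was detected on all 3, with ratios of 0.01 and -0.40. The median log2 ratio of the list was -0.18 with BP5 and -0.08 with BSP-II, against -0.09 and 0.01 over all genes.

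Among NF-kB subunits, inhibitors and the IKK complex, 12 of 35 listed genes had a probe and 8 were measured. NFKBIE was the only one past 2-fold with either peptide. NFKBIZ, a nuclear member of the same inhibitor family, read 981 on the control, 360.5 on the BP5 and 478 on the BSP-II array, with log2 ratios of -0.93 ± 0.21 and -0.31 ± 0.21. It passed 2-fold with BP5 under 1 alternative, scaling on the median (-1.13). The NFKBIZ ratios shrank to -0.56 and -0.04 under normexp, and to -0.53 and -0.06 after subtraction of the neighbouring probes. The classical inhibitor NFKBIA, another NF-kB target, had ratios of -0.05 and 0.47. The list medians were 0.06 and 0.35. In the list of NF-kB target genes 19 of 28 had a probe, 8 were measured, and 8 were not detected on any array, among them IL6, IL1B and the subunit NFKB1. NFKBIE was higher with both peptides and IRF1 lower with BP5, and 0 others passed 2-fold as reported. Among the others MYC came closest with BSP-II, with log2 ratios of 0.56 with BP5 and 0.88 with BSP-II. After subtraction of the neighbouring probes these were 0.92 and 1.08, past 2-fold with BSP-II. The medians of that list were 0.09 and 0.47, against -0.09 and 0.01 over all genes. Genes counted in 2 lists are the same probes.

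In the branch of nucleic acid sensing, TBK1 and IKK-epsilon, 5 of 24 listed genes had a probe and 4 were measured. SIKE1 and OPTN were lower with both peptides. OPTN encodes optineurin, a ubiquitin-binding adaptor of TBK1. It read 541.9 on the control, 174 on the BP5 and 159 on the BSP-II array, both peptide readings below the control. Its log2 ratios were -1.13 ± 0.22 and -1.04 ± 0.22, and they fell short of 2-fold after subtraction of the neighbouring probes (-0.80 and -0.86) and under normexp (-0.83 and -0.72), so that each call held under 4 of 8 alternatives. AZI2, another TBK1 adaptor, had ratios of 0.04 and -0.11. The adaptor MAVS was not well above background on any array.

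Of 11 genes listed as interferon regulatory factors, 6 had a probe and 4 were measured. IRF4, which governs plasma cell differentiation, read 22415, 24242 and 18690 on the control, BP5 and BSP-II arrays, with log2 ratios of 0.62 ± 0.20 and 0.46 ± 0.20. The IRF4 ratios became 0.47 and 0.03 after subtraction of the neighbouring probes, and 0.97 and 0.70 under normexp. IRF8, another factor of the B cell lineage, had ratios of 0.08 and -0.02, and IRF2, a repressor that competes with IRF1, of -0.53 and -0.57. IRF5 was not well above background on any array. Thus IRF1 with BP5 and IRF7 with both peptides, the latter by its bound, were the ones of this list past 2-fold.

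Upstream of the interferon-induced factors, 16 of 38 listed interferons, receptors and JAK-STAT genes had a probe, 13 were measured with BP5 and 12 with BSP-II. IFNW1, a type I interferon, was higher and JAK1, a kinase of the interferon receptors, lower with both peptides. IFNW1 read 72.8 on the control, 124 on the BP5 and 95.2 on the BSP-II array. The dimmest detected probes there read 30.2, 49.1 and 36.7, so IFNW1 was dim on every array. Its log2 ratios of 1.28 ± 0.26 and 1.11 ± 0.26 became 0.37 and 0.22 under normexp, which ends both calls. The ratio of IFNW1 with BSP-II was 0.92 under scaling on the median. JAK1 read 1026, 358 and 256, with log2 ratios of -1.01 ± 0.21 and -1.28 ± 0.21. The call of JAK1 with BP5 held under 2 of 8 alternatives, with ratios between -1.21 and -0.63, while that with BSP-II held under 7 and ended under normexp (-0.85). The receptor chain IFNAR1 had ratios of 0.37 and 0.15.

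Of 52 interferon-stimulated genes, 12 had a probe, 6 were measured and 5 were not detected on any array, among them MX1, an antiviral GTPase, and B2M. The B2M probe read at the software's floor on each array, at 6.06, 9.85 and 7.36. With BP5 IRF1 was lower and 0 were higher, and with BSP-II 0 measured genes passed 2-fold either way, while IRF7 was lower with both by its bound. LY6E, a membrane protein that restricts some viruses in mammals, came closest among the genes other than the IRFs. It read 269.8, 340.4 and 323 on the control, BP5 and BSP-II arrays, with log2 ratios of 0.85 ± 0.21 and 0.99 ± 0.21. The LY6E ratios became 0.57 and 0.68 after subtraction of the neighbouring probes, and 0.69 and 0.78 under normexp. The list medians were 0.13 with BP5 and 0.67 with BSP-II, against -0.09 and 0.01 over all genes. Those medians rest on 6 genes, some of them dim. IFI6 read 115, 91.9 and 122 on the control, BP5 and BSP-II arrays, and GBP 67.1, 65.5 and 68.7. The GBP readings hardly differ, so its log2 ratios of 0.48 and 0.76 come mostly from the scaling. The medians were not taken under the alternatives. Over all lists together, 2 of 40 measured genes other than the 5 regulators were higher and 3 lower with BP5, and 2 of 39 were higher and 2 lower with BSP-II. The shares of all genes past 2-fold, given above, were 2.91% and 3.76% with BP5 and 2.79% and 2.14% with BSP-II.

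**Figure D5:**
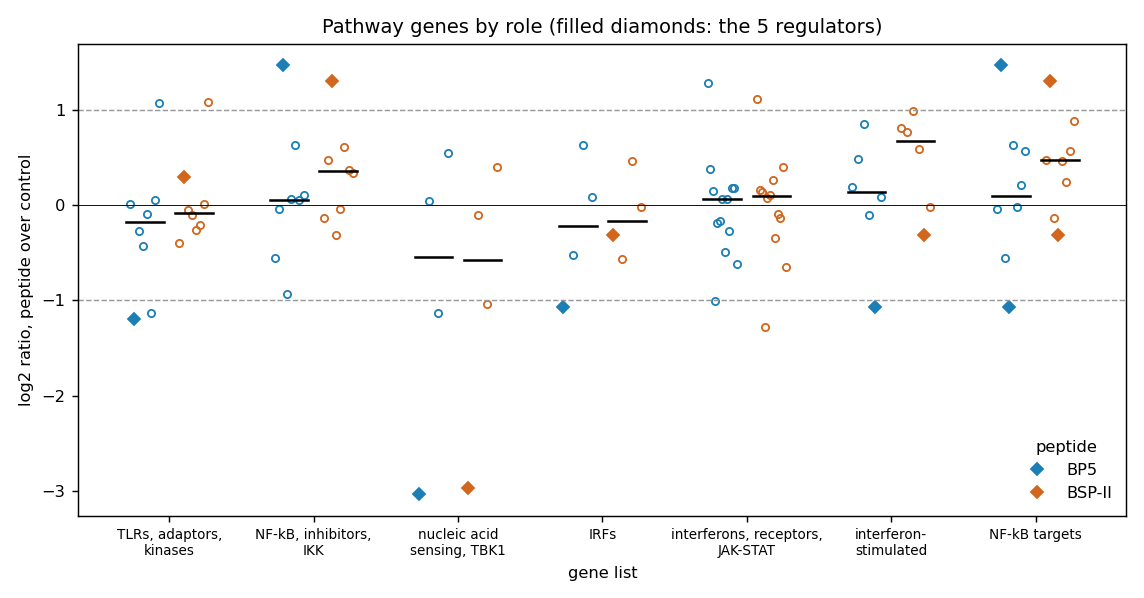
Log2 ratio of peptide over control for each measured gene of 7 lists by role (blue, BP5; orange, BSP-II; filled diamonds, the 5 regulators where they have a ratio; black lines, list medians; dashed lines, 2-fold). SIKE1 at -3.03 and -2.97 lies apart from all other listed genes with a ratio, and most other points lie between the dashed lines. IRF7, known by bounds only, is not shown, and its decrease may be as large.

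The genes whose pair of ratios to the control lay nearest to each regulator were sought among 2526 genes measured on all 3 arrays, by Euclidean distance in log2 units. For MYD88 these were WDR81 (distance 0.15), NUP188 (0.21) and BCAP29 (0.22). WDR81, for example, had ratios of -1.24 with BP5 and 0.15 with BSP-II. XPO7 (0.05), NR2E3 (0.12) and BSX (0.13) lay nearest to NFKBIE. U2AF1 (0.04), LAG3 (0.05) and SERPINB6 (0.09) lay nearest to IRF1. SIKE1 had no such close neighbour: CASC4, the nearest, was at a distance of 0.49, POP4 at 0.78 and CHAF1B at 0.86. Few genes lie as far out as SIKE1, so these distances restate its ratios. The likeness rests on 3 arrays and 2 ratios that share the control. For MYD88, NFKBIE and IRF1 the distances lie near or below the spot errors, so which genes are nearest is not settled.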

How the data were processed

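RNA of 3 DT40 cultures, labelled with Cy3 per the labels' protocols, was measured on 1 slide. The deposited intensity of each spot was made with Agilent Feature Extraction 10.5.1.1, per the submitters' processing notes, and was background-subtracted, spatially detrended and set to a floor where dim, per the file headers. Deposited by the authors as well were log2 values of 20085 probes, which correlated at 1.000 with log2 processed signals of the same arrays. Their scale is log2 by this comparison, each column's median is 7.75, their normalization is not stated, and they served as an alternative. Flags of 0 or 1 per spot (detection, saturation, outliers) are other deposited columns, per the file headers.

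Control spots (1417) were left out, and so were 153 of 42034 probes flagged as outliers. RefSeq accessions, without version, matched 4000 of 5017 probes to the GRCg7b gene table, used for names only, since the grid was built on another assembly. A gene's ratio was the mean over its probes detected and unsaturated on both arrays. Differences between values used Python 3.11.15, and normexp (offset 50) limma 3.58.1 on the spot medians, not the means first planned. Other scalings (75th percentile over detected probes, median, quantile), subtraction of the median ratio of neighbouring probes, no filter on dim probes and a 1.5-fold threshold were tried. The 8 alternatives of a ratio are not separate checks. Subtraction within 3, 5 and 10 rows and columns is 1 correction at different reach. Quantile normalization and the authors' values gave nearly the same ratios for the 5 genes. The ratio calculation was tested on simulated data in which the changed genes were bright and stayed detected. Dim readings and bounds were not covered by it.

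The genes, lists and alternatives were chosen with earlier results of these data known. Text names the 5 genes, list members past 2-fold, the 2 largest ratios of each list and the 3 nearest genes each (gene numbers without a symbol skipped). TLR1A, TLR3, TLR4, TLR7, TLR21, NFKB1, NFKBIA, AZI2, MAVS, IRF2, IRF5, IRF8, IFNAR1, MX1, B2M, IFI6, GBP, MYC, IL6, IL1B, CCL4, CCL20 and SOD2 were named after their values were seen. The design text mentions several experiments and cell populations without tying them to the arrays.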

Additional observations from a re-analysis of the deposited data

Results flagged for a closer look

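After scaling, MYD88 moved in opposite directions against the same control array. Its log2 ratio was -1.20 for BP5 and 0.29 for BSP-II, each beyond the error of its spots. Before scaling its reading was below the control with both peptides (415.5 for the control, 127 for BP5 and 307.5 for BSP-II). With 1 array per group this difference was not tested. The positive sign with BSP-II was lost when neighbouring probes within 3, 5 or 10 rows and columns were subtracted, where the ratio became -0.22, -0.07 and -0.03. Scaling on the median gave 0.10 with BSP-II, within its spot error of 0.21.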

How the results depend on the processing

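No paired analysis was possible because each group has 1 array. A ratio counted as moved where it changed by more than its spot error. Under normexp, chosen after seeing the data in its form on spot medians, MYD88 was -0.73 with BP5 and -1.07 between the peptides, SIKE1 -2.07 and -2.04 with BP5 and BSP-II, IRF1 -0.61 with BP5 and -0.32 between the peptides, and the bounds of IRF7 -1.60 and -1.42. Subtracting neighbours within 5 rows and columns gave MYD88 -0.068 with BSP-II and -1.16 between the peptides, NFKBIE 1.23 and 0.96, and SIKE1 -3.34 and -3.62. With 3 rows and columns, added after seeing the data like the next, they were -0.22 and -1.12, 1.24 and 0.96, and -3.50 and -3.67, with a bound of -1.44 for IRF7 with BP5. With 10 they were -0.027 and -1.22, 1.26 and 0.97, and -3.35 for SIKE1 with BSP-II, with IRF7 bounds of -1.56 and -1.87. Scaling on the median gave IRF7 bounds of -2.06 and -2.26. Quantile normalization and the authors' values moved none of the 5 genes by more than the spot error.

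Counts of genes higher and lower moved as follows. With BP5 (75 and 97) they were 41 and 34 under normexp, 44 higher on the median, 760 and 178 without the filter on dim probes, and 214 and 279 at 1.5-fold. After subtracting neighbours within 5, 3 or 10 rows and columns 53, 57 and 63 were lower. With BSP-II (73 and 56) 19 were lower under normexp, 48 higher and 88 lower on the median, 740 and 127 without the filter, and 259 and 179 at 1.5-fold. Between the peptides (3 and 38) 1 was higher under normexp, 8 with the percentile over detected probes, 5, 6 and 5 after subtraction within 5, 3 and 10, when 16, 14 and 19 were lower, 50 and 92 without the filter, and 55 and 148 at 1.5-fold. Without the filter, probes at the floor of both arrays come out higher after scaling. The other causes were not tested. Some readings lay within a few times the detection limit, among them SIKE1 and IRF1 on the peptide arrays, MYD88 with BP5, and IFNW1, IFI6 and GBP on every array. This limits what can be said of the size of their ratios.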

Other observations

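Among the NF-kB target genes, the chemokines CCL20 and CCL4 were detected on the control array only, at 36.8 and 38.3, readings too near the detection limit of the peptide arrays to give a fold. SOD2, the mitochondrial superoxide dismutase, read 3432 on the control, 7126 on the BP5 and 5187 on the BSP-II array, but its spot, in column 1 of the array, carried an outlier flag and was left out of all ratios.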
